A study of Mus musculus with 4 samples.

Results

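The 5 genes described here are Ccr1, Ccr2, Ccr7, Ccrl2 and Cx3cr1, mouse genes of the CC and CX3C chemokine receptor families. They were chosen by gene symbol and are 5 of the 31053 genes counted. Single-cell RNA sequencing was done on live CD45+ PI- cells, that is white blood cells that excluded the dye propidium iodide, sorted from 3 mm punch wounds in the skin of mice aged 8 weeks. The 4 libraries came from male mice of 2 genotypes, Angptl4+/+ and Angptl4-/-, taken 1 or 5 days after wounding (dpw, days post wounding), and the labels give C57BL6/J as the strain of both. The Angptl4-/- mice lacked Angptl4, a secreted inhibitor of lipoprotein lipase, throughout the body, so the skin of these mice lacked it as well as their white cells. Each combination of genotype and day was 1 library, and the number of mice behind a library is not given in the sources used here.

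Chemokine receptors are membrane proteins that couple to inhibitory G proteins and steer white blood cells along gradients of chemokines. In skin wounds, neutrophils enter first and monocytes follow and turn into macrophages, while dendritic cells that have taken up antigen leave for the lymph node. Ccr1 is a receptor for inflammatory CC chemokines such as Ccl3 and Ccl5 and is carried by neutrophils and monocytes. Ccr2 is the receptor for Ccl2 and brings monocytes out of the bone marrow and into tissue. Cx3cr1 is the receptor for fractalkine (Cx3cl1) and is typical of monocytes that patrol vessels and of many tissue macrophages. Ccr7 guides mature dendritic cells and naive T cells to Ccl19 and Ccl21 in lymph nodes. Ccrl2 is an atypical receptor that binds chemerin (Rarres2) and does not signal through G proteins.

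On the mm10 genome (GRCm38, GENCODE vM21 annotation), 4 of the 5 genes lie on chromosome 9 and Ccr7 lies on chromosome 11. Ccrl2 (ENSMUSG00000043953) spans chr9:111054486-111057519 on the minus strand. Cx3cr1 (ENSMUSG00000052336) spans chr9:119901616-120069879 on the minus strand, and its exons overlap the gene spans of Wdr48 and Gm33858, both on the opposite strand. Ccr1 (ENSMUSG00000025804) spans chr9:123962124-123968692 on the minus strand. Ccr2 (ENSMUSG00000049103) spans chr9:124101950-124113557 on the plus strand. Ccr7 (ENSMUSG00000037944) spans chr11:99144196-99155077 on the minus strand. Of the 31-base words in its transcripts, Ccr2 shared 3.41% with other genes. Ccr1 shared 0.642% (18 words, all with Ccr3 and Ccr1l1), Cx3cr1 shared 1.75%, Ccrl2 shared 0.231% and Ccr7 shared 0 of 1948 words. Reads from such shared stretches cannot be told apart between the genes that share them.

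The 250 bases before the transcript start are shown for the 4 genes with a RefSeq promoter entry (GRCm38.p6), because the levels below set Ccr1 and Ccrl2, which were highest in neutrophil-like cells, apart from Ccr2 and Cx3cr1, which were highest in monocyte-like or macrophage-like cells. Capitals mark matches on either strand to the NF-κB consensus and to GAGGAA, a core of PU.1 sites, PU.1 being a transcription factor of myeloid cells.
Ccr1, chr9:123968693-123968942, minus strand: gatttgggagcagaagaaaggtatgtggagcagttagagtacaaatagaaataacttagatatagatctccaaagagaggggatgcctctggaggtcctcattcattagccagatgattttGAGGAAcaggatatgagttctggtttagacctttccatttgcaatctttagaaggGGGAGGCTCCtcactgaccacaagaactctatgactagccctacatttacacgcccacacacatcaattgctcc
Ccrl2, first of 3 entries, chr9:111057519-111057768, minus strand: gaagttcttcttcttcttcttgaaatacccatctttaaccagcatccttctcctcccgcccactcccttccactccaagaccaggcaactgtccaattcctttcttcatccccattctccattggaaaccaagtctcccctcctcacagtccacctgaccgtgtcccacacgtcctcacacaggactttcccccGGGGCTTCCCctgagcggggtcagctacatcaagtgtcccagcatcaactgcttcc
Ccr2, chr9:124101933-124102182, plus strand: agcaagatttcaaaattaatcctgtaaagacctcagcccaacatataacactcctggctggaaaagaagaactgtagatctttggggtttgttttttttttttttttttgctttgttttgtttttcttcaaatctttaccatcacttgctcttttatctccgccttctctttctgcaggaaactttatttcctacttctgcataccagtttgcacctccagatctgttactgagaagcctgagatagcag
Cx3cr1, chr9:120068297-120068546, minus strand: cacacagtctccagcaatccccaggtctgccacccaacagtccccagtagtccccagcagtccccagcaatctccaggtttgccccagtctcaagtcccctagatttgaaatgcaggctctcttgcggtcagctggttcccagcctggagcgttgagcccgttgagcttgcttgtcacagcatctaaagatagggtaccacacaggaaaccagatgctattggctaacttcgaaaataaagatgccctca

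The Ccr1 sequence held GGGAGGCTCC, an NF-κB match, from 74 to 65 bases before the start, and GAGGAA from 129 to 124 bases before it. The Ccrl2 sequence held the NF-κB match GGGGCTTCCC from 56 to 47 bases before the start, and the windows of the other 2 Ccrl2 entries held no match to any of the motifs. No match to these or to the C/EBP (TTGCNNAA) or AP-1 (TGANTCA) consensus was in the Ccr2 and Cx3cr1 windows. The windows precede the start of the RefSeq entry, which can differ from the GENCODE start. By the GENCODE spans above, the Ccr1 window and that of the first Ccrl2 entry lie at or before the gene's start. Most of the Ccr2 window and all of the Cx3cr1 window lie inside the gene, so the windows are not like regions. Among all 32851 RefSeq promoter windows of this length, 7.25% held the NF-κB consensus, 23.3% GAGGAA, 9.56% the C/EBP and 6.75% the AP-1 consensus. The motifs were chosen after the levels were seen, and a match is a description of letters only.

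Of 20069 barcodes, 19827 passed the filters on detected genes and mitochondrial transcripts, and the libraries held 26981596 to 32962595 unique molecular identifiers (UMIs, each standing for 1 captured RNA molecule). Clustering gave 14 clusters that markers assigned to 6 classes, written here with "-like" because they rest on RNA markers. Angptl4 had 47 and 78 UMIs in the Angptl4+/+ libraries of 1 and 5 dpw and 0 in both Angptl4-/- libraries. Between libraries, 48 passing barcodes were shared, and leaving them out moved none of the 95 ratios examined beyond its interval. Each class carried its own markers. The summed neutrophil list was at 108278 to 218938 UMIs per 1000000 UMIs (CPM) in neutrophil-like cells. In macrophage-like cells it was at 1960 to 12576 CPM and the macrophage list at 17200 to 21276 CPM. The neutrophil list also exceeded a class's own list in some libraries. In monocyte-like cells it was at 7001 to 12877 CPM against 7862 to 9002 CPM, and lower only in the Angptl4-/- library of 5 dpw. At 1 dpw it was at 35852 and 18266 CPM in NK cell/T cell-like cells, against 5488 and 5553 CPM, in Angptl4+/+ and Angptl4-/- wounds. For dendritic cell-like cells these were 4748 and 3184 CPM, against 2254 and 2820 CPM. Of the cell types the sort should leave out, fibroblast and red cell markers were at or below 8.78 CPM outside neutrophil-like cells, where red cell markers reached 1312 CPM in 1 library. Endothelial markers reached 108 CPM in dendritic cell-like, 105 CPM in macrophage-like and 234 CPM in B cell-like cells, and keratinocyte markers reached 37.2 CPM in NK cell/T cell-like cells. Markers of mast cells and basophils, which are CD45+, reached 840 CPM in NK cell/T cell-like cells.

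Levels are given as the CPM of a class in a library, the gene's UMIs summed over the class, with exact Poisson 95% intervals where an interval is printed. Shares of cells have exact binomial intervals and log2 ratios have exact conditional binomial ones. With 1 library per condition there is no replicate spread and no test, so all these intervals cover counting error only and say nothing about differences between mice. A gene is called past the fold where the ratio between 2 libraries was at least 1.5 either way on at least 100 UMIs, and the share of all genes of the class that were past it is given beside the members' count.

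The 5 receptors differed in the class of wound white cells where they were highest, with overlap between them. Ccr1 had its highest level in neutrophil-like cells, where its level at 1 dpw was 1253 CPM (1238 to 1269) for Angptl4+/+ and 1182 CPM (1166 to 1197) for Angptl4-/-, and at 5 dpw 1841 CPM (1813 to 1870) for Angptl4+/+ and 1979 CPM (1954 to 2004) for Angptl4-/-. Macrophage-like cells followed at 324 to 594 CPM and monocyte-like cells at 160 to 257 CPM, and in dendritic cell-like cells Ccr1 was at 90.1 to 174 CPM. Ccrl2 was also highest in neutrophil-like cells, at 501 to 673 CPM, followed by macrophage-like cells at 89.4 to 160 CPM. For both genes neutrophil-like cells stood above every other class in each of the 4 libraries.

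Cx3cr1 in all 4 libraries and Ccr2 in 3 of them were highest in the monocyte-like cluster, whose leading genes were Ace, Hpgd and Ldlrad3. Ccr2 was at 1086 to 1739 CPM there, at 675 to 1268 CPM in macrophage-like cells, at 340 to 678 CPM in NK cell/T cell-like cells and at 277 to 503 CPM in dendritic cell-like cells. The order of the monocyte-like and macrophage-like classes was not the same in all libraries: at 5 dpw in Angptl4+/+ wounds macrophage-like cells were higher (1268 against 1086 CPM), and in the other 3 libraries monocyte-like cells were. Cx3cr1 was at 172 to 367 CPM in monocyte-like cells and at 18.1 to 195 CPM in macrophage-like cells. It was at 22.2 to 45.6 CPM in dendritic cell-like and 14.6 to 68.7 CPM in NK cell/T cell-like cells. At 1 dpw both of these classes were above macrophage-like cells in each genotype, on 18 to 52 UMIs a library. Neutrophil-like cells held 2.56 to 8.34 CPM of Ccr2 and 0.818 to 2.43 CPM of Cx3cr1. Monocyte-like and macrophage-like cells were also clustered again together. At resolution 0.8 the sub-cluster led by Prtn3, BC035044 and Bmx had 1674 CPM of Ccr2 and 231 CPM of Cx3cr1 over all libraries. The sub-cluster led by Slc12a2, Eno3 and Ace had 707 and 343 CPM, and 25.6% of its cells were doublet-called. The part of this mix in the class levels and day ratios was not tested.

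Ccr7 marked dendritic cell-like cells, at 666 to 1166 CPM. B cell-like cells, of which there were 2 to 27 in a library, were at 318 to 702 CPM with intervals as wide as 258 to 1528 CPM. NK cell/T cell-like cells were at 39.2 to 67.8 CPM, and Ccr7 was at 8.65 CPM or below in neutrophil-like, monocyte-like and macrophage-like cells of every library.

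**Figure D1:**
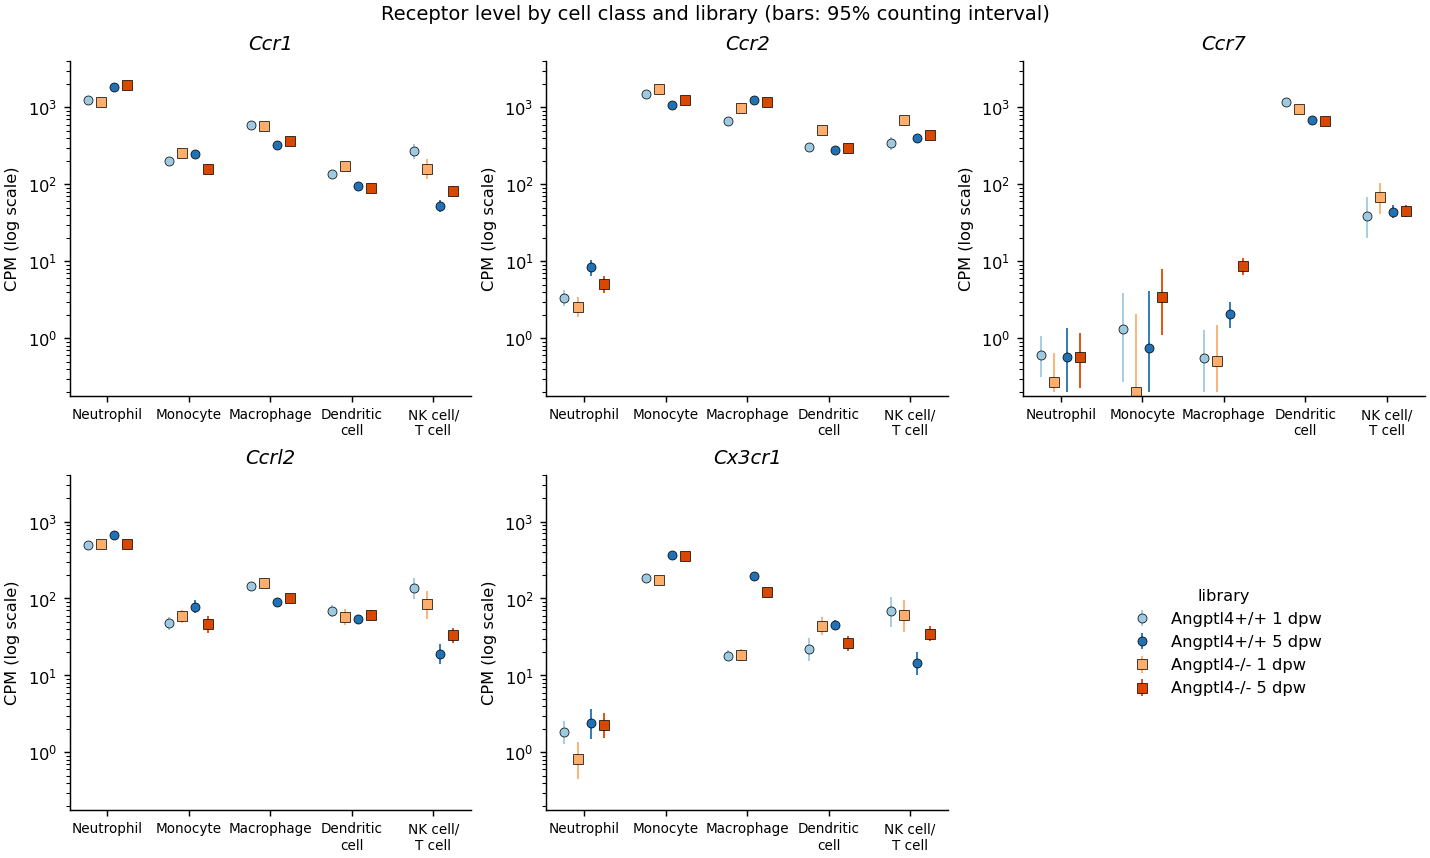
Level of each receptor (CPM, log axis, with 0 drawn at 0.2 CPM) in 5 cell classes, with 1 point for each of the 4 libraries and bars for the 95% counting interval. Ccr1 and Ccrl2 are highest in neutrophil-like cells, Cx3cr1 in monocyte-like cells, and Ccr7 in dendritic cell-like cells at 666 to 1166 CPM. Ccr2 is highest in monocyte-like or, in the Angptl4+/+ library of 5 dpw, macrophage-like cells.

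By the share of cells with at least 1 UMI, Ccr1 was seen in 95.7% to 97.4% of neutrophil-like cells at median depths of 3218 to 4683 UMIs, against 14.5% to 35.1% of NK cell/T cell-like cells at 6138 to 7001 UMIs. Ccr2 was seen in 62.1% to 86.0% of macrophage-like cells and in 0.865% to 2.30% of neutrophil-like cells. With every cell thinned to 1000 UMIs, which left out 9 to 63 macrophage-like cells a library, these shares were 34.8% to 59.2% for Ccr2 in macrophage-like cells and 0.272% to 0.735% in neutrophil-like cells. RNA set free by broken cells gives droplets a background: the level of Ccr2 in neutrophil-like cells was 0.265% to 0.658% of its macrophage-like level, and for 7 genes typical of macrophages the median was 0.135% to 0.512%. In each library Ccr2 in neutrophil-like cells lay within the range of these 7 genes, above 4 of them in the Angptl4+/+ library of 5 dpw and above 6 in the other 3 libraries, and the part of free RNA in it was not tested. Ccr7 was seen in 44.1% to 62.0% of dendritic cell-like cells at median depths of 12945 to 13891 UMIs. It was seen in 57.1% to 100% of the few B cell-like cells at 3475 to 4274 UMIs. With cells thinned to 1000 UMIs these shares were 31.2% to 47.2% and 18.5% to 50%, so the ranges overlapped.

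Of the 4 members with at least 100 UMIs in macrophage-like cells, Cx3cr1 differed most between the days. At 1 dpw its level was 18.1 CPM (15.4 to 21.1, 163 UMIs) for Angptl4+/+ and 18.5 CPM (15.2 to 22.3, 108 UMIs) for Angptl4-/-. At 5 dpw it was 195 CPM (188 to 203, 2552 UMIs) for Angptl4+/+ and 121 CPM (113 to 129, 934 UMIs) for Angptl4-/-. The level was thus 10.8-fold higher at 5 than at 1 dpw in Angptl4+/+ wounds, a log2 ratio of 3.43 (3.20 to 3.67), and 6.52-fold higher in Angptl4-/- wounds, a log2 ratio of 2.70 (2.42 to 3.01). Both libraries of 5 dpw lay above both of 1 dpw. The share of macrophage-like cells with a Cx3cr1 UMI was 4.42% and 4.49% at 1 dpw and 41.0% and 29.6% at 5 dpw, and 1.47%, 0.893%, 14.1% and 8.45% with cells thinned to 1000 UMIs. In neutrophil-like cells that share was at most 0.875%. The median of all genes in this class moved by 0.15 on the log2 scale between the Angptl4+/+ days, and relative to it the Cx3cr1 difference was 3.28.

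At 5 dpw Cx3cr1 was lower in macrophage-like cells of Angptl4-/- than of Angptl4+/+ wounds, by 1.62-fold (log2 ratio -0.69, -0.80 to -0.59), while at 1 dpw the log2 ratio was 0.03 (-0.33 to 0.39). It was the 1 of 4 members with enough UMIs that was past the fold in this class at 5 dpw, against 5.1% of all 8848 genes tested. At 1 dpw 0 of 4 were, against 3.84% of all genes. Between days all 4 were past the fold in Angptl4+/+ macrophage-like cells (29.2% of all genes) and 3 of 4 in Angptl4-/- (24.2%). The macrophage-like class was made of clusters 2, 6 and 11, and it held more of cluster 6 than of cluster 2 in the Angptl4-/- library of 5 dpw only (301 against 285 cells), with cluster 2 the largest in the other 3.

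Within these clusters the lower Cx3cr1 level at 5 dpw was present in both large ones. In cluster 2, with Sema3c and Cav1 among its leading genes, Cx3cr1 was at 125 CPM in Angptl4+/+ and 59.4 CPM in Angptl4-/- wounds (log2 ratio -1.07, -1.33 to -0.82). In cluster 6, led by Ccl12, Gas6 and Ms4a7, it was at 311 and 177 CPM (-0.82, -0.95 to -0.69). The small cluster 11, led by Retnla, went the other way, at 43.3 and 69.8 CPM (0.69, 0.20 to 1.18).

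Sub-clustering monocyte-like together with macrophage-like cells showed the same direction over days in nearly every state. Of 9 sub-clusters, 7 had at least 100 Cx3cr1 UMIs over the Angptl4+/+ libraries. In all 7 the level was higher at 5 than at 1 dpw, by log2 1.05 to 6.04. Apart from sub-cluster 3, with 417 UMIs, their Angptl4+/+ levels at 1 dpw rested on only 2 to 52 UMIs. In each of these 3 cells held 50% to 100% of the UMIs. The monocyte-like sub-cluster 3, led by BC035044, Slc12a2 and Ace, was the only one above 100 CPM at 1 dpw in both genotypes, at 178 CPM in each, and it held 369 and 363 CPM at 5 dpw. In sub-cluster 4, led by Dmkn, Spint1 and Gpr183, the level was 6.68 and 19.4 CPM at 1 dpw and 367 and 227 CPM at 5 dpw in Angptl4+/+ and Angptl4-/- wounds. Sub-cluster 2, led by Gas6 and Ccl8, had 28.7 and 50.9 CPM at 1 dpw and 256 and 134 CPM at 5 dpw. Sub-cluster 8, led by Retnla and below that number of UMIs, did not follow: it was at 124 CPM at 1 dpw and 30.8 CPM at 5 dpw in Angptl4+/+ wounds, and 80.6% of its 36 UMIs at 1 dpw came from 3 cells.

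For the genotypes at 5 dpw, the log2 ratio of Cx3cr1 was below 0 in all 7 sub-clusters with enough UMIs, from -0.94 in sub-cluster 2 to -0.03 in the monocyte-like sub-cluster 3. The interval lay below 0 in 5 of them. The monocyte-like class itself was at 184 and 172 CPM at 1 dpw and 367 and 361 CPM at 5 dpw in Angptl4+/+ and Angptl4-/- wounds. Its Cx3cr1 level was therefore higher at 5 dpw in both genotypes (log2 0.99, 0.80 to 1.19, and 1.07, 0.87 to 1.28), with a genotype ratio of -0.02 (-0.20 to 0.16) at 5 dpw.

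**Figure D2:**
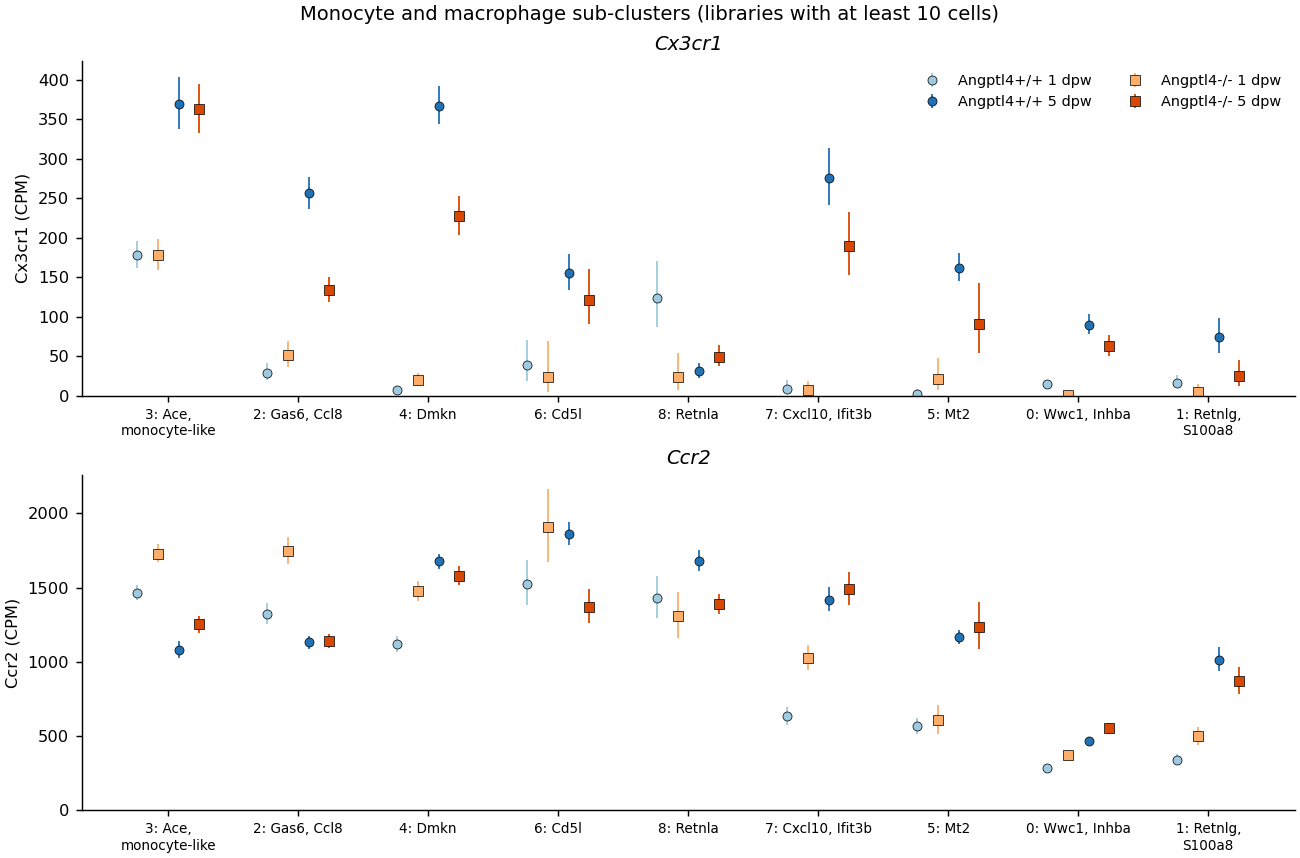
Cx3cr1 and Ccr2 levels (CPM) in the 9 sub-clusters of monocyte-like and macrophage-like cells, named by number and leading genes, with 1 point for each library that had at least 10 cells of the sub-cluster and bars for the 95% counting interval. Cx3cr1 at 5 dpw lies above 1 dpw in all but sub-cluster 8 of Angptl4+/+ wounds, and Ccr2 spans 280 to 1908 CPM.

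Ccr2 was carried by every monocyte and macrophage state at differing levels. In macrophage-like cells the level at 1 dpw was 675 CPM (658 to 692) for Angptl4+/+ and 969 CPM (944 to 995) for Angptl4-/-, and at 5 dpw 1268 CPM (1248 to 1287) for Angptl4+/+ and 1162 CPM (1138 to 1186) for Angptl4-/-. The Angptl4-/- level was thus 1.44-fold higher at 1 dpw (log2 0.52, 0.47 to 0.57) and slightly lower at 5 dpw (-0.13, -0.16 to -0.09), both below the fold. From 1 to 5 dpw the log2 ratio was 0.91 (0.87 to 0.95) for Angptl4+/+, or 0.76 relative to the shift of all genes, and 0.26 (0.21 to 0.31) for Angptl4-/-. In monocyte-like cells the direction over days was the opposite: 1482 and 1739 CPM at 1 dpw and 1086 and 1260 CPM at 5 dpw, log2 ratios of -0.45 (-0.54 to -0.36) and -0.47 (-0.55 to -0.38).

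Between states, Ccr2 was lowest in sub-cluster 0, led by Wwc1, Slco4a1 and Inhba, at 280 to 550 CPM over the 4 libraries. Sub-cluster 6, led by Cd5l, had the highest level in 3 libraries, at 1525 to 1908 CPM. In the Angptl4-/- library of 5 dpw it had 1370 CPM, below sub-clusters 4 (1581 CPM), 7 (1489 CPM) and 8 (1386 CPM). At 1 dpw the Angptl4-/- level was above the Angptl4+/+ level in 7 of 9 sub-clusters by the interval of the ratio, with log2 ratios of -0.13 to 0.70. At 5 dpw 2 were above and 4 below, with ratios of -0.44 to 0.25. Sub-cluster 1 was led by neutrophil genes (Retnlg, Mrgpra2b, Il1f9), had a median of 1848 UMIs a cell, and held 15.6% doublet-called cells. Leaving it out changed the Ccr2 day ratio of macrophage-like cells to 0.84 in Angptl4+/+ and 0.21 in Angptl4-/- wounds, and kept the Cx3cr1 ratio at 5 dpw at -0.68.

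Some cells held UMIs of both Ccr2 and Cx3cr1. Thinned to 1000 UMIs, these were 29 of 1244 monocyte-like and macrophage-like cells in the Angptl4+/+ and 22 of 910 in the Angptl4-/- library of 1 dpw, and 152 of 1647 and 58 of 775 at 5 dpw. Ccr2 was seen in 59.2% and 71.0% of Cx3cr1-positive cells at 1 dpw in Angptl4+/+ and Angptl4-/- wounds, and in 37.8% and 45.8% of the rest. At 5 dpw these were 60.1% and 61.1% of Cx3cr1-positive cells and 55.7% and 58.7% of the rest. The higher share in Cx3cr1-positive cells was thus plain at 1 dpw, and at 5 dpw its interval overlapped that of the rest in both genotypes (53.8% to 66.2% against 53.1% to 58.4% in Angptl4+/+ wounds). These counts pool both classes. Monocyte-like cells held 61.9% and 61.5% of all Cx3cr1 UMIs at 1 dpw and 14.9% and 31.9% at 5 dpw. At 1 dpw their Ccr2 level was also higher, at 1482 and 1739 CPM against 675 and 969 CPM in macrophage-like cells. The part of the class mix in the shared detection was not tested.

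In dendritic cell-like cells at 1 dpw Ccr7 had 1166 CPM (1113 to 1220, 1836 UMIs) for Angptl4+/+ and 943 CPM (888 to 1000, 1106 UMIs) for Angptl4-/-. At 5 dpw it had 694 CPM (668 to 720, 2769 UMIs) for Angptl4+/+ and 666 CPM (637 to 696, 1930 UMIs) for Angptl4-/-. Both libraries of 1 dpw lay above both of 5 dpw. The day ratio was -0.75 (-0.83 to -0.66) in Angptl4+/+ wounds, or -0.63 relative to the median of all genes, which moved by -0.12. In Angptl4-/- wounds it was -0.50 (-0.61 to -0.39), or -0.39 relative to the median, which moved by -0.11. The genotype ratio was -0.31 (-0.42 to -0.20) at 1 dpw and -0.06 (-0.14 to 0.03) at 5 dpw, and thinning the cells turned both to 0.33 and 0.16. The class had 108, 302, 86 and 202 cells in the Angptl4+/+ libraries of 1 and 5 dpw and the Angptl4-/- libraries of 1 and 5 dpw.

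Ccr7 and Ccr2 marked different dendritic cell-like states. Of 6 sub-clusters, Ccr7 was concentrated in sub-cluster 1, mature dendritic cell-like with Apol7c, Nudt17 and Fscn1 among its leading genes, and in sub-cluster 2, led by Bnip3, Egln3 and Ccl22. Over all libraries Ccr7 was at 1576 CPM and Ccr2 at 21.0 CPM in sub-cluster 1, and at 2054 and 38.3 CPM in sub-cluster 2. Every one of the 226 cells of sub-cluster 1 had a Ccr7 UMI, as did 94.4% of the 108 cells of sub-cluster 2. The other sub-clusters were the reverse. Sub-cluster 3, led by Cd7, Crip2 and Upb1, had 5.33 CPM of Ccr7 and 914 CPM of Ccr2. The conventional dendritic cell 1-like sub-cluster 4 had 7.17 and 173 CPM, and the plasmacytoid dendritic cell-like sub-cluster 5 had 5.58 and 310 CPM. Sub-cluster 0, led by C1qb, C1qa and Mrc1, which are macrophage genes, had 106 CPM of Ccr7 and 588 CPM of Ccr2, and its Ccr7 level was 324 and 173 CPM at 1 dpw and 44.0 and 28.5 CPM at 5 dpw in Angptl4+/+ and Angptl4-/- wounds. These levels rested on few cells: 12 of 37 and 6 of 24 cells had a Ccr7 UMI at 1 dpw and 8 of 99 and 5 of 67 at 5 dpw, and 3 cells held 60.4%, 89.4%, 90.2% and 81.5% of the UMIs in the same order.

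**Figure D3:**
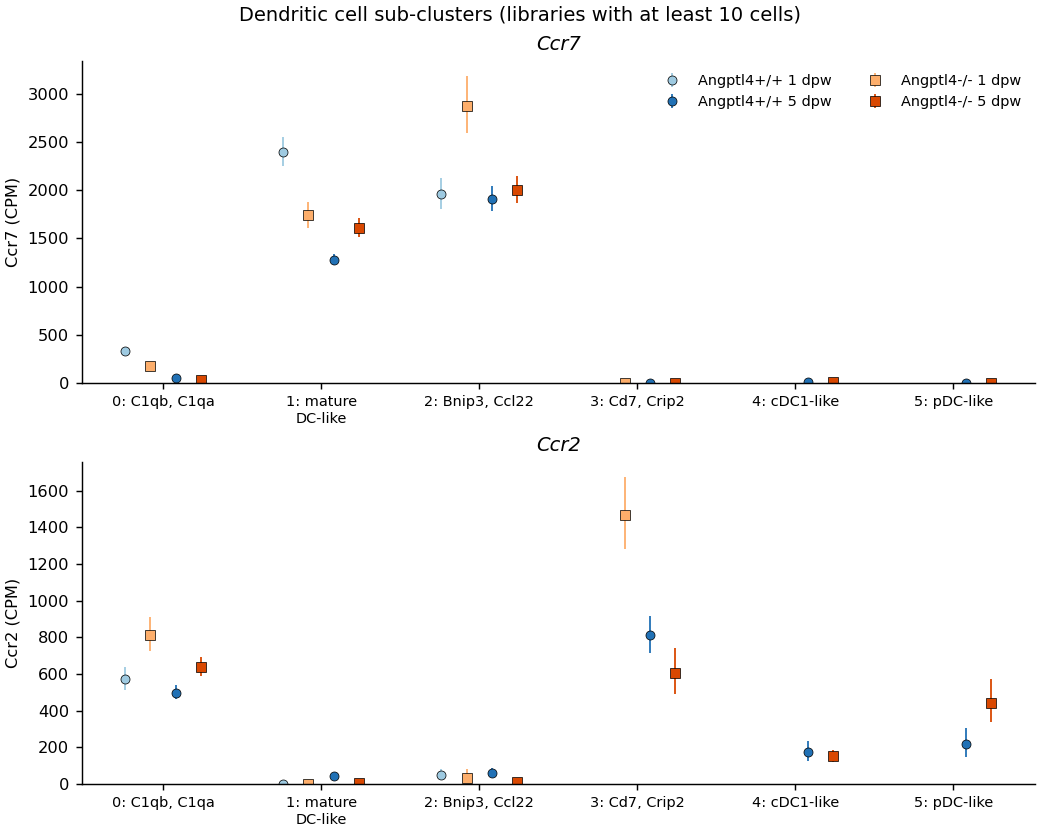
Ccr7 and Ccr2 levels (CPM) in the 6 sub-clusters of dendritic cell-like cells, with 1 point for each library that had at least 10 cells of the sub-cluster and bars for the 95% counting interval. Ccr7 lies at 1278 to 2879 CPM in sub-clusters 1 and 2, where Ccr2 is at 58.3 CPM or below.

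The split held in each library. In sub-cluster 1 Ccr7 was at 2402 and 1740 CPM at 1 dpw and 1278 and 1609 CPM at 5 dpw in Angptl4+/+ and Angptl4-/- wounds, and in sub-cluster 2 at 1966 and 2879 CPM and then 1912 and 2008 CPM. The genotype ratio thus had opposite signs in the 2 sub-clusters at 1 dpw, -0.47 (-0.61 to -0.32) and 0.55 (0.36 to 0.74), with 15 to 30 cells a library in each. At 1000 UMIs a cell, Ccr7 was seen in 4.55%, 3.45%, 5.26% and 0% of the Ccr2-positive dendritic cell-like cells in the Angptl4+/+ libraries of 1 and 5 dpw and the Angptl4-/- libraries of 1 and 5 dpw. Among the Ccr2-negative cells it was seen in 58.1%, 41.98%, 50.7% and 38.4%. The 0% stood for 0 of 38 cells, with an upper limit of 9.25%.

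Ccr2 in dendritic cell-like cells was 1.65-fold higher in Angptl4-/- than in Angptl4+/+ wounds at 1 dpw (503 against 305 CPM, log2 0.72, 0.54 to 0.90). It was 1 of 4 members with enough UMIs past the fold, against 7.31% of all genes. Over 12 other processing settings the ratio ran from 0.09 to 0.92 and was past the fold in 11. At 5 dpw Ccr2 was at 295 and 277 CPM (0.09, -0.04 to 0.22). The ratio at 1 dpw was also above 0 within sub-cluster 0 (0.51, 0.28 to 0.73) and within sub-cluster 3 (0.72, 0.39 to 1.07), which had 9 and 12 cells. At 5 dpw 1 of 5 members, Cx3cr1 at 45.6 and 26.2 CPM, was past the fold, against 6.93% of all genes. Between days 2 of 5 were past it in Angptl4+/+ wounds, Ccr7 lower and Cx3cr1 higher, against 21.5% of all genes, and 3 of 5 in Angptl4-/- wounds, Ccr1, Ccr2 and Cx3cr1, all lower, against 15.9%. The day ratio of Cx3cr1 thus had opposite signs, 1.04 for Angptl4+/+ and -0.76 for Angptl4-/-. Over 12 other processing settings the latter ran from -1.10 to -0.0096. It rested on 52 and 76 UMIs, of which 3 cells held 36.5% at 1 dpw and 27.6% at 5 dpw. Neutrophil markers in dendritic cell-like cells had sums of 4748 and 3184 CPM at 1 dpw and 887 and 1039 CPM at 5 dpw, and their part in the Ccr1 difference was not tested.

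Outside dendritic cell-like and lymphoid cells, Ccr7 rested on a handful of cells. In the Angptl4-/- library of 5 dpw, macrophage-like cells had 67 Ccr7 UMIs in 4 of 648 cells, of which 56 were in 1 cell. The 2 cells with 5 or more UMIs, carried 65 of them, and without these 2 the level was 0.259 CPM. Both cells had a UMI of Ccl22 and neither had one of Fscn1, which are both genes of mature dendritic cells. In the Angptl4+/+ library of 5 dpw 2 such cells, likewise with Ccl22 and without Fscn1, carried 16 of 27 UMIs, and without them the level was 0.843 CPM. The level with all cells was 8.65 CPM in Angptl4-/- and 2.07 CPM in Angptl4+/+ wounds, so its direction turned when these cells were left out.

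Ccr1 was present in nearly all neutrophil-like cells, with a median of 5 to 6 UMIs a cell. The genotype ratio was -0.09 (-0.11 to -0.06) at 1 dpw and 0.10 (0.08 to 0.13) at 5 dpw, and scaling by the trimmed mean of M values (TMM) took the first to 0.01 and the second to 0.20. Neither was past the fold, and 0 of 3 members with enough UMIs were at 1 dpw, against 4.62% of all genes. At 5 dpw the 1 of 3 past it was Ccr2, on 72 and 62 UMIs, against 5.48% of all genes. The level was higher at 5 than at 1 dpw by log2 0.55 (0.53 to 0.58) for Angptl4+/+ and 0.74 (0.72 to 0.77) for Angptl4-/-, and these turned to -0.22 and -0.05 with TMM scaling. In the same contrasts the median of all genes in neutrophil-like cells moved by 0.65 and 0.68, and 58.5% and 59.8% of all genes were past the fold. Relative to that median Ccr1 differed by -0.09 and 0.06. In these day contrasts Ccr2, which lay at 8.34 CPM or below, was past the fold in both genotypes and Ccr1 in Angptl4-/- wounds. S100a8 and S100a9, the 2 most abundant neutrophil transcripts, took 16.9% and 18.6% of the class's UMIs at 1 dpw and 9.32% and 9.41% at 5 dpw.

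Ccrl2 differed between the neutrophil-like clusters. Cluster 0, led by Scrg1, Ggt1 and Ngp, had 110 and 70.4 CPM at 1 dpw and 191 and 152 CPM at 5 dpw in Angptl4+/+ and Angptl4-/- wounds. Cluster 3, led by Csf3 and Rps6ka2 and with Il1a among its leading genes, had 954 and 1095 CPM at 1 dpw and 1345 and 958 CPM at 5 dpw. Cluster 4, with Egr3 and Tnf among its leading genes, was at 903, 986, 812 and 639 CPM, and the interferon-gene cluster 5 (Ifit3b, Ifit1, Rsad2) at 717, 741, 725 and 543 CPM, in the same order. Over the 6 clusters Ccr1 ranged from 1019 to 1379 CPM at 1 dpw and from 1434 to 2483 CPM at 5 dpw. All 5 other clusters were above cluster 0 for Ccrl2 in every library, whereas for Ccr1 cluster 4 was the lowest in every library.

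Between genotypes, Ccrl2 in neutrophil-like cells had 501 CPM (491 to 511) for Angptl4+/+ and 511 CPM (501 to 521) for Angptl4-/- at 1 dpw. At 5 dpw it had 673 CPM (656 to 691) for Angptl4+/+ and 513 CPM (501 to 526) for Angptl4-/-. These are log2 ratios of 0.03 (-0.01 to 0.07) and, at 5 dpw, of -0.39 (-0.44 to -0.34), the latter 1.31-fold lower and below the fold. It was negative at 5 dpw in 6 of 6 clusters, from -0.60 to -0.33, with every interval below 0. At 1 dpw 2 clusters were above and 2 below 0, from -0.82 to 0.20. Over days Ccrl2 was higher by 0.43 in Angptl4+/+ and by 0.01 in Angptl4-/- wounds, and relative to the median of all genes it was lower by log2 -0.22 and -0.67. TMM scaling turned both day ratios, to -0.35 and -0.79. Ccrl2 was seen in 43.2% and 39.6% of neutrophil-like cells at 5 dpw, in 28.7% and 24.5% after thinning, and in 11.9% and 16.4% of NK cell/T cell-like cells.

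**Figure D4:**
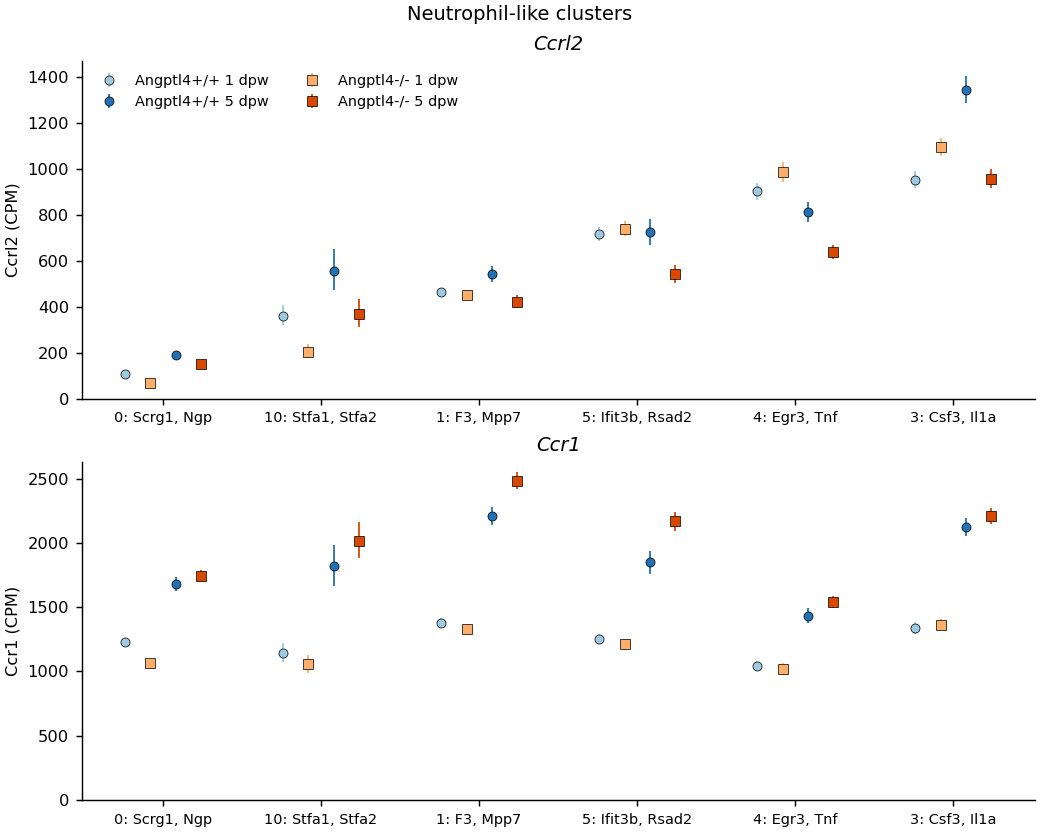
Ccrl2 and Ccr1 levels (CPM) in the 6 neutrophil-like clusters, named by number and leading genes, with 1 point for each library and bars for the 95% counting interval. At 5 dpw the Angptl4-/- point of Ccrl2 lies below the Angptl4+/+ point in 6 of 6 clusters, and cluster 0 is the lowest in every library.

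In macrophage-like cells Ccr1 and Ccrl2 were lower at 5 than at 1 dpw. Ccr1 was at 594 and 580 CPM at 1 dpw and 324 and 368 CPM at 5 dpw (log2 -0.87, -0.93 to -0.81, and -0.66, -0.73 to -0.58). Ccrl2 was at 143 and 160 CPM and then at 89.4 and 100.2 CPM (-0.68 and -0.67). The day ratio of Ccr1 was below 0 by its interval in 8 of 9 sub-clusters in Angptl4+/+ wounds and in 7 of 9 in Angptl4-/- wounds. Neutrophil markers moved with it: all 10 markers of the list had UMIs in macrophage-like cells of each library, with a sum of 12576 and 11285 CPM at 1 dpw and 1960 and 2203 CPM at 5 dpw. The Ccr1 level was 47.4% and 49.1% of the neutrophil-like level at 1 dpw and 17.6% and 18.6% at 5 dpw, above the highest of the 10 neutrophil markers, which reached 21.7%, 18.2%, 6.65% and 5.97% in the same order. Without sub-cluster 1 the Ccr1 ratios were -0.86 and -0.63 and those of Ccrl2 -0.66 and -0.58.

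**Figure D5:**
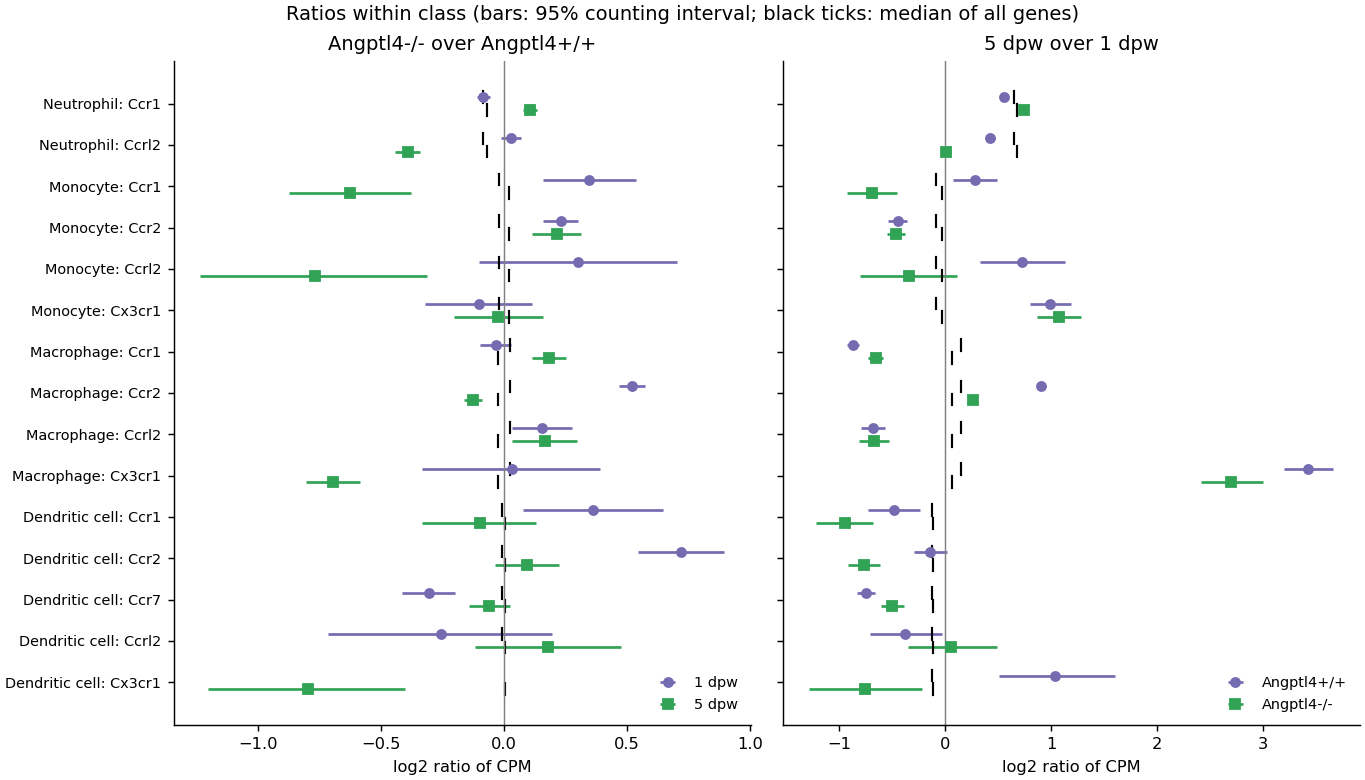
Log2 ratios of CPM for each receptor and class, between genotypes on each day and between days in each genotype, with bars for the 95% counting interval and black ticks for the median ratio of all genes of the class. Among ratios on at least 100 UMIs, the largest day ratio is that of Cx3cr1 in macrophage-like cells (3.43 in Angptl4+/+ and 2.70 in Angptl4-/- wounds), and the ticks of neutrophil-like cells stand at 0.65 and 0.68 between days.

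In monocyte-like cells 0 of 4 members with enough UMIs were past the fold between genotypes at 1 dpw (3.66% of all genes) and 2 of 4 at 5 dpw (5.09%). These 2 were Ccr1, at 246 and 160 CPM in Angptl4+/+ and Angptl4-/- wounds (log2 -0.63, -0.87 to -0.38), and Ccrl2, at 78.6 and 46.1 CPM (-0.77, -1.24 to -0.32). At 1 dpw both had ratios above 0, 0.35 for Ccr1 and 0.30 for Ccrl2. Neutrophil markers were summed to 12877 and 8896 CPM at 1 dpw and 11139 and 7001 CPM at 5 dpw in these cells, and 3 of 143 Angptl4+/+ cells at 5 dpw held 24.9% of the Ccr1 and 40.0% of the Ccrl2 UMIs. The part of neutrophil RNA in these differences was not tested. Between days 2 of 4 members were past the fold in each genotype (16.1% and 12.4% of all genes).

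NK cell/T cell-like cells carried Ccr2 above all, at 340 and 678 CPM at 1 dpw and at 400 and 440 CPM at 5 dpw. With 39 and 37 cells at 1 dpw, 1 Angptl4-/- cell gave 73 of 200 Ccr2 UMIs, and thinning changed the ratio from 1.00 (0.65 to 1.35) to -0.37. Among 8 sub-clusters Ccr2 was highest in sub-cluster 4, led by Areg, Foxp3 and Tnfrsf4, genes of regulatory T cells, at 793 CPM over all libraries together. In the Angptl4+/+ library of 5 dpw it had 568 CPM from 16 cells there, below the 693 CPM of sub-cluster 0 from 68 cells. In the Angptl4-/- library of 1 dpw it had 1559 CPM from 4 cells of sub-cluster 2. That was above the level of sub-cluster 4 in any library (1211 CPM at most). Over all libraries sub-cluster 4 had 43 cells. Over all libraries Ccr2 was at 633 CPM in the NK cell-like sub-cluster 0, led by Gzmc and Xcl1, and at 587 CPM in the T cell-like sub-cluster 3, with Tcrg-C1 and Trdc among its leading genes. Ccr7 was concentrated in sub-cluster 5, at 287 CPM and in 65.7% of its 35 cells. This sub-cluster was led by Lef1 and Ccr7 itself with Tcf7 among its leading genes, and Lef1 and Tcf7 are genes of naive T cells. Over all libraries Cx3cr1 was highest in the NK cell-like sub-cluster 6, led by Prf1 and Gzma, at 90.1 CPM from 35 cells, but in the Angptl4-/- library of 5 dpw it had 23.6 CPM there, below the 80.8 CPM of sub-cluster 1.

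In NK cell/T cell-like cells Ccr1, Ccrl2 and the neutrophil markers were all lower at 5 than at 1 dpw. Ccr1 was at 271 and 159 CPM at 1 dpw and 52.7 and 82.8 CPM at 5 dpw in Angptl4+/+ and Angptl4-/- wounds, and all 10 neutrophil markers were present with sums of 35852, 18266, 3008 and 2549 CPM with Angptl4+/+ first on each day. As a percentage of the neutrophil-like level Ccr1 was at 21.7%, 13.5%, 2.86% and 4.18%, and the median of the 10 markers at 17.2%, 8.50%, 2.49% and 2.29%. The highest marker was at 23.2%, 12.3%, 4.93% and 3.98%, so Ccr1 lay above all 10 in both Angptl4-/- libraries. Between genotypes at 5 dpw the directions differed: Ccr1 and Ccrl2 (19.2 and 33.4 CPM) were higher in Angptl4-/- wounds and the marker sum was lower. Sub-cluster 7, with 31 cells led by Mcpt8 and Cpa3, genes of basophils and mast cells, along with the neutrophil genes Retnlg and Lcn2, had 575 CPM of Ccr1, and 35.5% of its cells were doublet-called. Members past the fold between genotypes were 2 of 2 at 1 dpw, against 17.8% of 940 genes, and 3 of 5 at 5 dpw, against 4.69% of 5776 genes. Those at 5 dpw were Ccr1, Ccrl2 and Cx3cr1, all higher in Angptl4-/- wounds. There 3 of 226 cells held 39.8%, 33.3% and 52.9% of their UMIs in that order. Over 12 other processing settings the ratios fell as low as 0.56, 0.07 and 0.07. In the 1 sub-cluster with enough UMIs Ccr1 was lower, at -0.85. Between days members past the fold were 1 of 3 in Angptl4+/+ and 4 of 5 in Angptl4-/- wounds, all lower, against 42.5% and 33.4% of all genes. The part of neutrophil RNA in these differences was not tested.

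Summed over all cells of a library, the receptors changed with both the mix of cells and the level in each class, and fewer cells of a type and less RNA per cell cannot be told apart in such a sum. At 5 dpw the UMIs per cell of Angptl4-/- wounds differed from those of Angptl4+/+ wounds by -33.6% for Ccr2 (2.70 against 4.08), by -47.6% for Cx3cr1 (0.348 against 0.663), by -22.8% for Ccr7 and by 38.4% for Ccr1. With each class given its Angptl4-/- UMIs per cell but its Angptl4+/+ share of cells, the same differences were 28.4%, -8.28%, 9.42% and 25.6%. UMIs per cell also carry the depth of the cells: macrophage-like cells at 5 dpw were deeper for Angptl4-/- (median 11557 UMIs) than for Angptl4+/+ (median 8344 UMIs), and their Ccr2 ratio by CPM was -0.13. With only the shares changed they were -47.9%, -45.4%, -28.6% and 14.9%. Weighting by cluster in place of class kept each of these signs, with 15.4% for Ccr2, -18.6% for Cx3cr1 and 25.0% for Ccr7 at fixed shares. Macrophage-like cells made up 31.3% of the cells of Angptl4+/+ and 13.7% of those of Angptl4-/- wounds at 5 dpw, dendritic cell-like cells 6.11% and 4.26%, and neutrophil-like cells 54.5% and 73.8%. At 1 dpw the differences over all cells were 6.45% for Ccr2 and -32.2% for Ccr7. Of the 5 members, 1 was past the fold over all cells between genotypes at 5 dpw, against 10.9% of all genes, and 0 at 1 dpw, against 4.54%. Between days Ccr2, Ccr7 and Cx3cr1 were past it in Angptl4+/+ wounds (3 of 5) and Ccr7 and Cx3cr1 in Angptl4-/- wounds (2 of 5), all higher at 5 dpw, against 61.1% and 56.5% of all genes.

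Genes of the same pathway were read from fixed lists of 21 other receptors, 13 ligands and 14 signalling partners. Of 9 ligands with enough UMIs in macrophage-like cells, 7 were past the fold and lower at 5 than at 1 dpw in Angptl4+/+ wounds, against 9.56% of all genes lower. In Angptl4-/- wounds 4 of 9 were, against 10.1%, and none was past it and higher in either genotype, with median log2 ratios of -1.37 and -0.51, against medians of all genes of 0.15 and 0.07. The neutrophil markers given above for this class were lower at 5 dpw too, and their part was not tested. Ccl4 was at 1036 and 950 CPM at 1 dpw and at 245 and 317 CPM at 5 dpw. Ccl2, the main ligand of Ccr2, was at 639 and 611 CPM and then at 280 and 392 CPM. Ccl12, another Ccr2 ligand, was higher in Angptl4-/- macrophage-like cells on both days, at 86.4 and 140 CPM at 1 dpw and 33.5 and 51.9 CPM at 5 dpw. Ccl7, which also binds Ccr2, was at 422 and 522 CPM at 1 dpw and at 212 and 373 CPM at 5 dpw. Cx3cl1, Rarres2 and Ccl19, ligands of Cx3cr1, Ccrl2 and Ccr7, were scarce in these sorted cells. Over all libraries Cx3cl1 was at 9.13 CPM in dendritic cell-like cells and at 0.369 CPM or below elsewhere. Rarres2 was at 0.252 CPM or below in every class, and Ccl19 had 0 UMIs.

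Of the other receptors, Ackr3, a scavenger of Cxcl12, was at 29.9 and 18.3 CPM at 1 dpw and 3.06 and 4.65 CPM at 5 dpw in macrophage-like cells. Cxcr2, the main neutrophil receptor for CXC chemokines, was higher at 5 than at 1 dpw in neutrophil-like cells by 0.62 and 0.73, close to the shift of all genes there. Ccl2 in neutrophil-like cells was low, at 8.44 and 4.75 CPM at 1 dpw and 63.5 and 38.1 CPM at 5 dpw. Its ratio between genotypes was past the fold on both days (-0.83 and -0.74), and between days it was 2.91 and 3.00.

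The genes whose levels followed each receptor most closely were ranked by Pearson's r of log2(CPM + 1) over 52 values, each 1 cluster in 1 library with at least 20 cells, among 8723 genes. The points share libraries and cell classes, so r is a description of the pattern over classes. For Ccr1 these were Cd14 (0.974), Lilr4b (0.968) and Rnf149 (0.967), and for Ccr2 Cln6 (0.963), Pepd (0.959) and Naa25 (0.959). Ccr7 was followed by Birc2 (0.885), Pxdc1 (0.884) and Galnt12 (0.868). Ccrl2 was followed by Maff (0.932), Sntb2 (0.932) and Arrdc4 (0.924), and Cx3cr1 by Cryl1 (0.915), Nrp1 (0.911) and Akr7a5 (0.910). Cd14 is a co-receptor for bacterial lipopolysaccharide, Maff a stress-induced transcription factor and Nrp1 a co-receptor of semaphorins and of vascular endothelial growth factor.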

How the data were processed

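The deposited files hold raw counts of UMIs per gene and cell barcode, made by the authors with 10X Genomics Chromium 3' chemistry and, per the submitters' processing notes, Cell Ranger 3.1.0, Seurat 3.0 and mm10. Barcodes with at least 200 genes and at most 10% mitochondrial UMIs were kept (242 failed). Libraries were integrated and clustered with Seurat 5.3.0 (2000 variable genes, 21 genes including the members left out, 30 dimensions, resolution 0.5). Monocyte-like with macrophage-like, dendritic cell-like and NK cell/T cell-like cells were clustered again (15 or 30 dimensions). Clusters were named among 6 classes from marker lists and described by the 10 genes of highest fold with at least 200 UMIs in 10% of cells, the last 2 rules being set after clustering was seen. Cells with the 4% highest doublet scores of each library (scanpy 1.11.5) were kept. UMIs were summed per class and library. With 1 library per condition no test was run. On counts simulated with Poisson counting error only, 99% of genes changed 2-fold and 0.324% of unchanged genes were past the fold for macrophage-like cells. For monocyte-like cells these were 95.6% and 1.31%. The simulation held no spread between cells, mice or libraries, so these are not error rates for the data.

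The members and lists were chosen with earlier results of these data known. Genes named are the members, the 3 genes most like each, genes of the pathway lists past the fold in the same direction in both contrasts of a kind, and leading genes of clusters. Ccl7, Cx3cl1, Rarres2 and Ccl19 were named after their values were seen. Some genes are not reported here. Depth per cell is given beside shares. Alternatives covered integration, resolution, filters, doublets, thinning, scaling (edgeR's TMM on the counts) and averaging.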

Additional observations from a re-analysis of the deposited data

Results flagged for a closer look

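In 4 pairs of contrasts within a class, the ratios of a receptor, each on at least 100 UMIs, lay on opposite sides of 0 with intervals that excluded 0 on each side and with at least 1 of them past the fold, and none of these differences was tested. In monocyte-like cells the Angptl4-/- to Angptl4+/+ log2 ratio of Ccr1 was 0.35 at 1 dpw and -0.63 at 5 dpw. Over the 12 other settings it ran from 0.26 to 0.67 and from -1.17 to -0.42. The day ratio of Ccr1 in the same cells was 0.28 in Angptl4+/+ and -0.69 in Angptl4-/- wounds. These values rest on the same 4 libraries, with 232 to 462 Ccr1 UMIs in each, and the summed neutrophil markers of monocyte-like cells ranged from 7001 to 12877 CPM.

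In dendritic cell-like cells the day ratio of Cx3cr1 was 1.04 in Angptl4+/+ and -0.76 in Angptl4-/- wounds, on 35 to 182 UMIs a library. The genotype ratio of Ccr1 in NK cell/T cell-like cells was -0.77 at 1 dpw and 0.65 at 5 dpw, on 47 to 201 UMIs a library. At 5 dpw the 1 sub-cluster with enough UMIs went the other way, at -0.85 with its interval below 0. In Angptl4+/+ and Angptl4-/- wounds 3 cells held 50.6% and 44.7% of these UMIs at 1 dpw and 20.6% and 39.8% at 5 dpw. As a percentage of the neutrophil-like level Ccr1 lay above all 10 neutrophil markers in both Angptl4-/- libraries and above 9 and 6 of them in the Angptl4+/+ libraries of 1 and 5 dpw. The genotype ratios of Ccr1 in neutrophil-like and of Ccr2 in macrophage-like cells also lay on opposite sides of 0 at 1 and 5 dpw, all of them below the fold.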

How the results depend on the processing

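No paired analysis was possible because each genotype and day had 1 library, and for the same reason no library could be left out in turn. Over 95 ratios and 12 other settings, 52 of the 1140 alternative values turned the sign of the ratio. The fold call was lost in 52 of the values and gained in 37. Thinning moved 58 of the 95 ratios beyond their interval and turned the sign of 2 that were past the fold. In the main setting 40 ratios were past the fold, and 5 of the sign changes were of such a ratio. These were Ccr1 in neutrophil-like cells between Angptl4-/- days with TMM scaling (-0.050), Ccr7 in monocyte-like and macrophage-like cells together between genotypes at 5 dpw without integration (-0.10 in place of 2.01), Ccr2 in NK cell/T cell-like cells between genotypes at 1 dpw with thinning (-0.37), and the Angptl4-/- day ratio of Ccr2 in NK cell/T cell-like cells with thinning (0.87) and as a mean over cells (0.16).

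The ratios that answer a main comparison moved as follows. In neutrophil-like cells Ccrl2 was at 0.12 at 1 dpw with TMM scaling, and at 5 dpw at -0.33 with thinning, -0.32 as a mean over cells and -0.30 with TMM scaling. Ccr1 there was at 0.14 with thinning and 0.20 with TMM scaling at 5 dpw. In macrophage-like cells Ccr2 was at 0.41 with thinning and 0.37 as a mean over cells at 1 dpw, and at -0.064 with thinning and -0.17 with at most 5% mitochondrial UMIs at 5 dpw. The Angptl4-/- day ratio of Cx3cr1 in macrophage-like cells was 3.41 with thinning and 3.09 as a mean over cells. Ccr7 in dendritic cell-like cells at 5 dpw was at 0.16 with thinning. The cause of these differences was not tested. With a minimum of 30 UMIs, 894 and 972 genes of neutrophil-like cells were past the fold between genotypes at 1 and 5 dpw in place of 299 and 367, and with a fold of 2, 62 and 69 were. In macrophage-like cells these were 764 and 957, and 56 and 99, in place of 301 and 451. At sub-cluster resolution 0.8 the highest Cx3cr1 level of a monocyte-like or macrophage-like sub-cluster was 343 CPM in place of 253. Leaving out the sub-cluster led by neutrophil genes, or barcodes found in 2 libraries, was chosen after seeing the data. With log2(CPM + 10), 2, 1, 2, 1 and 2 of the 3 genes most like Ccr1, Ccr2, Ccr7, Ccrl2 and Cx3cr1 were shared.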
